A study of Ricinus communis with 18 samples.

Results

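The genes of the apoplastic barriers of the root were taken from castor (Ricinus communis) root RNA-seq by product name. A gene was a member if the product that the authors list for it named a CASP-like or Casparian protein, a 3-ketoacyl-CoA synthase, a fatty acyl-CoA reductase, a glycerol-3-phosphate acyltransferase, an omega-hydroxypalmitate feruloyl transferase or a lipid-transfer protein. This gave 109 of 21332 genes in 6 classes: 28 of the CASP family, 17 ketoacyl-CoA synthases, 5 acyl-CoA reductases, 11 glycerol-phosphate acyltransferases, 10 feruloyl transferases and 38 lipid-transfer proteins. Whole root systems were sequenced in 6 groups of 3 libraries. Treated plants had 15% PEG-6000, a polymer that holds water back from the roots, for 3 or for 7 days. A rehydrated group was taken on day 11, when PEG had been gone for 4 days. Each had an untreated group of the same day. Whether the 3 libraries of a group are separate plants is not stated. P-values therefore rest on the spread among libraries, part or all of which may be technical.

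Water and solutes that move through root cell walls are stopped at the endodermis. There, Casparian strip membrane proteins mark a belt of plasma membrane at which lignin is laid down, as worked out in Arabidopsis. Older endodermis and outer root layers add suberin, a polyester of long fatty acids, glycerol and ferulate. Its monomers are made by elongation of acyl chains (ketoacyl-CoA synthases), reduction to alcohols (acyl-CoA reductases), attachment to glycerol (glycerol-3-phosphate acyltransferases) and esterification with ferulate (feruloyl transferases). Lipid-transfer proteins are small secreted proteins that bind lipids and are thought to carry them through the wall. Many of these families also work in the cuticle of shoots. Product names are those of best hits, mostly in other species.

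Most barrier transcripts came from a few genes. Levels are FPKM, reads per length and per library total. A single member with a bifunctional inhibitor/lipid-transfer domain (ncbi_8270583) averaged 3817 FPKM over the 18 libraries and made up 68.1% of the lipid-transfer class. CASP-like 1D1 (ncbi_8262392) gave 62.2% of the CASP family, ketoacyl-CoA synthase 11 (ncbi_8276218) 70.3% of its class, and a lysophosphatidic acid acyltransferase (ncbi_8278956) 52.3% of the acyltransferases. The commonest feruloyl transferase (ncbi_8286270) gave 43.4% of its class. No acyl-CoA reductase averaged 1 FPKM. At the other end, 18 members had 0 counts in all libraries. In all, 59 members had enough counts to be tested: 22 of the CASP family, 6 ketoacyl-CoA synthases, 2 reductases, 9 acyltransferases, 6 feruloyl transferases and 14 lipid-transfer proteins. Of the 50 untested members, 45 stayed below 1 FPKM in every group mean, and the highest group mean was 2.16 FPKM. Of the 23 members named as nonspecific lipid-transfer proteins, 16 had under 20 counts over all libraries together.

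After 3 days in PEG, 10 of the 59 tested members were higher than in untreated roots and 9 were lower. These 19 are 32.2% of the tested members, beside 23.1% of all 16085 genes tested (11.7% higher and 11.4% lower). A call is an adjusted p below 0.05 in edgeR's quasi-likelihood test, adjusted over all genes. The classes differed in their mix of calls. The CASP family had 4 higher and 5 lower, lipid-transfer proteins 4 higher and 0 lower, acyltransferases 2 higher and 0 lower. Ketoacyl-CoA synthases had 0 higher and 1 lower, reductases 0 and 1, feruloyl transferases 0 and 2. Differences between classes were not tested, and the reads of near-identical copies may be split between paralogs, so single family members are uncertain. Median log2 fold changes at 3 days were -0.29 for the CASP family, -1.35 for ketoacyl-CoA synthases, -1.04 for reductases, -0.23 for acyltransferases, -1.06 for feruloyl transferases and -0.39 for lipid-transfer proteins, against -0.08 for all genes. The split of calls depends on scaling: with library totals in place of TMM, 8 members were higher and 19 lower beside 31.5% of all genes, and the median of all genes moved to -0.52. Leaving out untreated library 1 left 7 higher and 3 lower, beside 11.6% of all genes.

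**Figure D1:**
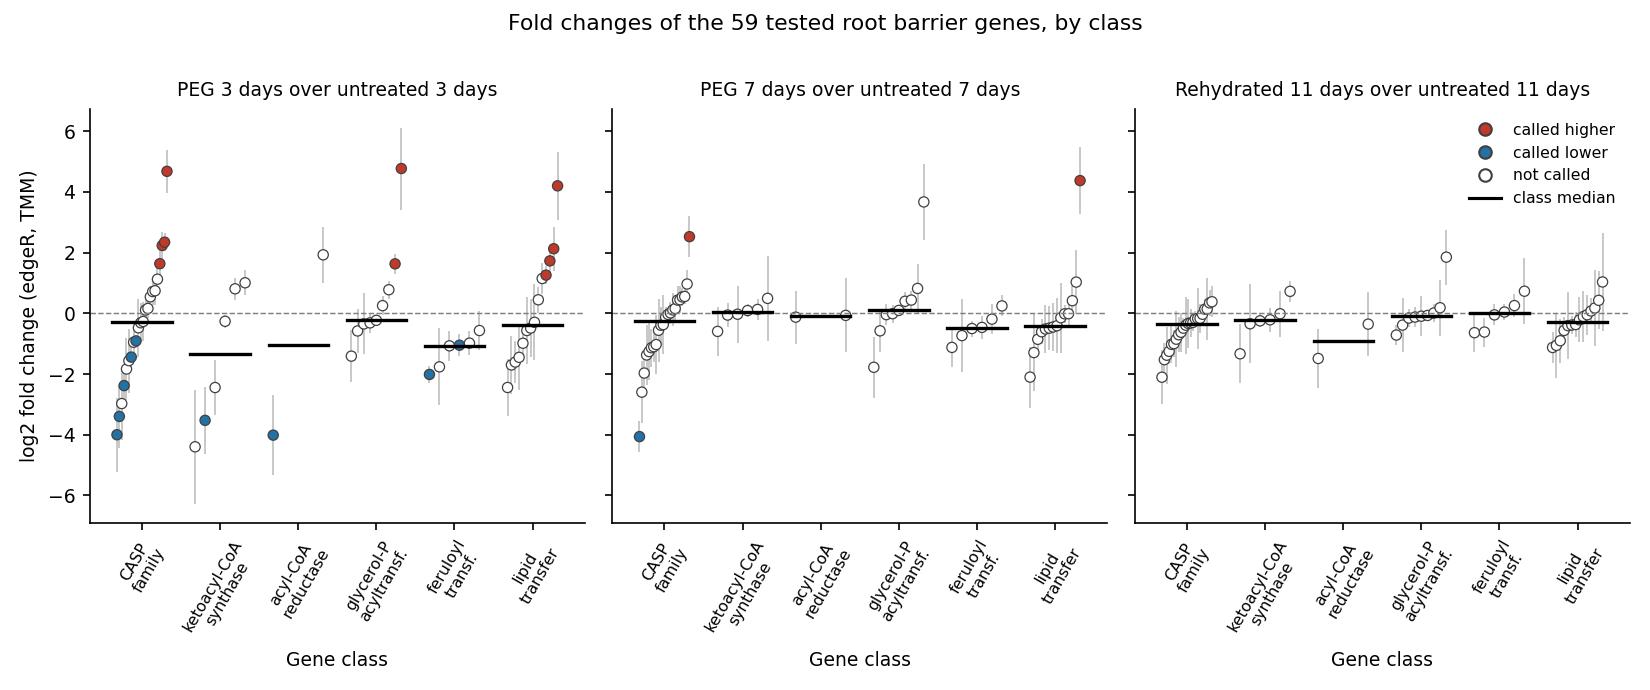
Log2 fold change (y axis, edgeR with TMM, grey bars: SE) of each of the 59 tested members by class (x axis), PEG or rehydrated over untreated roots of the same day, with class medians as black bars. Called genes are coloured; there are 19 at 3 days, 3 at 7 days and 0 at 11 days, and the 6 feruloyl transferases all lie below 0 at 3 days.

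Among the CASP family the most abundant gene had the lowest adjusted p of the increases. CASP-like 1D1 (ncbi_8262392) stood at 1312, 1720 and 1641 FPKM in PEG roots at 3 days, against 288, 512 and 446 FPKM in untreated roots. All 3 PEG libraries were above all 3 untreated ones, and the log2 fold change was 2.34 ± 0.30 (SE), with an edgeR adjusted p of 0.000228. At 7 days the gene had 405, 380 and 581 FPKM in PEG roots and 372, 329 and 419 FPKM in untreated roots, which overlap (0.54 ± 0.29, edgeR adjusted p 0.264). Rehydrated roots had 345, 290 and 421 FPKM, overlapping the 321 to 510 FPKM of their untreated group, with rehydrated library 2 below it. CASP-like 1E1 (ncbi_8262393) is the next gene on the reference annotation. It had 14.6, 2.91 and 6.39 FPKM in PEG roots at 3 days and 7.53, 2.49 and 4.92 FPKM in untreated roots, and was not called on any day. The functions of CASP-like proteins outside the Casparian strip are mostly not known.

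CASP-like 1F2 (ncbi_8275516) had the largest increase of the family and was called on both days of PEG. It had 4.07, 24.6 and 16.99 FPKM in PEG roots at 3 days, against 0.74, 0.61 and 1.03 FPKM in untreated roots (log2 4.68 ± 0.71, edgeR adjusted p 0.000601). At 7 days it had 3.72, 3.36 and 5.25 FPKM in PEG roots and 0.40, 0.13 and 1.96 FPKM in untreated roots (2.53 ± 0.68, edgeR adjusted p 0.0467). The groups did not overlap on either day. The call at 7 days was lost without PEG library 1 or 3 or untreated library 1 or 2, with log2 values of 2.10 to 2.53. In rehydrated roots the gene was at 0.62, 0.39 and 0.76 FPKM, and in untreated roots of that day at 0.48 to 0.91 FPKM.

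Another pair of CASP-like genes rose at 3 days. CASP-like 4B1 (ncbi_8263139) had 9.74, 23.6 and 7.96 FPKM in PEG roots, against 2.30, 4.83 and 4.79 FPKM in untreated roots (2.24 ± 0.45, edgeR adjusted p 0.00355). CASP-like ARALYDRAFT_485429 (ncbi_8260583) had 16.96, 17.8 and 24.5 FPKM in PEG roots and 7.12, 8.31 and 9.89 FPKM in untreated roots (1.64 ± 0.55, edgeR adjusted p 0.0438). Neither pair of groups overlapped. The call of ncbi_8260583 was lost on leaving out any 1 of the 6 libraries (log2 1.47 to 1.78) and with library totals (1.20).

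Of the 5 members of the CASP family that fell at 3 days, the lowest adjusted p-values were those of a pair of 4A genes. CASP-like 4A1 (ncbi_8269306) had 0.92, 0.78 and 0.31 FPKM in PEG roots, against 7.63, 2.33 and 4.36 FPKM in untreated roots (-2.38 ± 0.56, edgeR adjusted p 0.00739). CASP-like 4A3 (ncbi_8289016, singled out after its values were seen) had 5.97, 6.0 and 7.45 FPKM in PEG roots and 15.9, 14.5 and 19.1 FPKM in untreated roots (-0.91 ± 0.20, edgeR adjusted p 0.00487). Their groups lay apart at 3 days. At 7 days 4A1 had 1.05, 2.71 and 1.47 FPKM in PEG roots and 3.45, 6.52 and 2.91 FPKM in untreated roots. These FPKM were still apart, but the gene was not called (-1.10 ± 0.52, edgeR adjusted p 0.209).

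CASP-like 1F3 and 2D1 fell as well, from low levels. CASP-like 1F3 (ncbi_8285286) had 0.37, 0 and 0.08 FPKM in PEG roots at 3 days, against 2.81, 1.69 and 2.14 FPKM in untreated roots (-3.40 ± 1.05, edgeR adjusted p 0.0294). CASP-like 2D1 (ncbi_8283926) had 1.05, 0 and 0.25 FPKM in PEG roots and 15.2, 0.97 and 12.8 FPKM in untreated roots (-4.00 ± 1.22, edgeR adjusted p 0.029). The groups of 2D1 overlap, since untreated library 2 was below PEG library 1. Both calls were lost without PEG library 2 or 3 or untreated library 1 or 3, with log2 values of -3.39 to -2.89 for 1F3 and -3.70 to -3.47 for 2D1.

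The fifth decrease, of a gene named only protein CASP-like (ncbi_8271450), was the one that deepened in value by day 7. The name is shared with a Golgi protein outside the family, so its place among barrier genes is uncertain. It had 1.73, 3.29 and 2.5 FPKM in PEG roots at 3 days, against 9.11, 7.31 and 11.4 FPKM in untreated roots (-1.44 ± 0.43, edgeR adjusted p 0.0258). At 7 days it had 0.26, 1.36 and 0.45 FPKM in PEG roots, against 11.9, 14.5 and 15.4 FPKM in untreated roots (-4.06 ± 0.50, edgeR adjusted p 0.0013). The groups were apart on both days. Rehydrated roots had 8.46, 6.02 and 12.8 FPKM, overlapping the 28.1, 11.2 and 23.1 FPKM of untreated roots. The call at 3 days was lost without PEG library 1 or 3 or untreated library 1 or 3 (-1.48 to -1.24), while the call at 7 days was kept whichever 1 of its 6 libraries was left out.

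**Figure D2:**
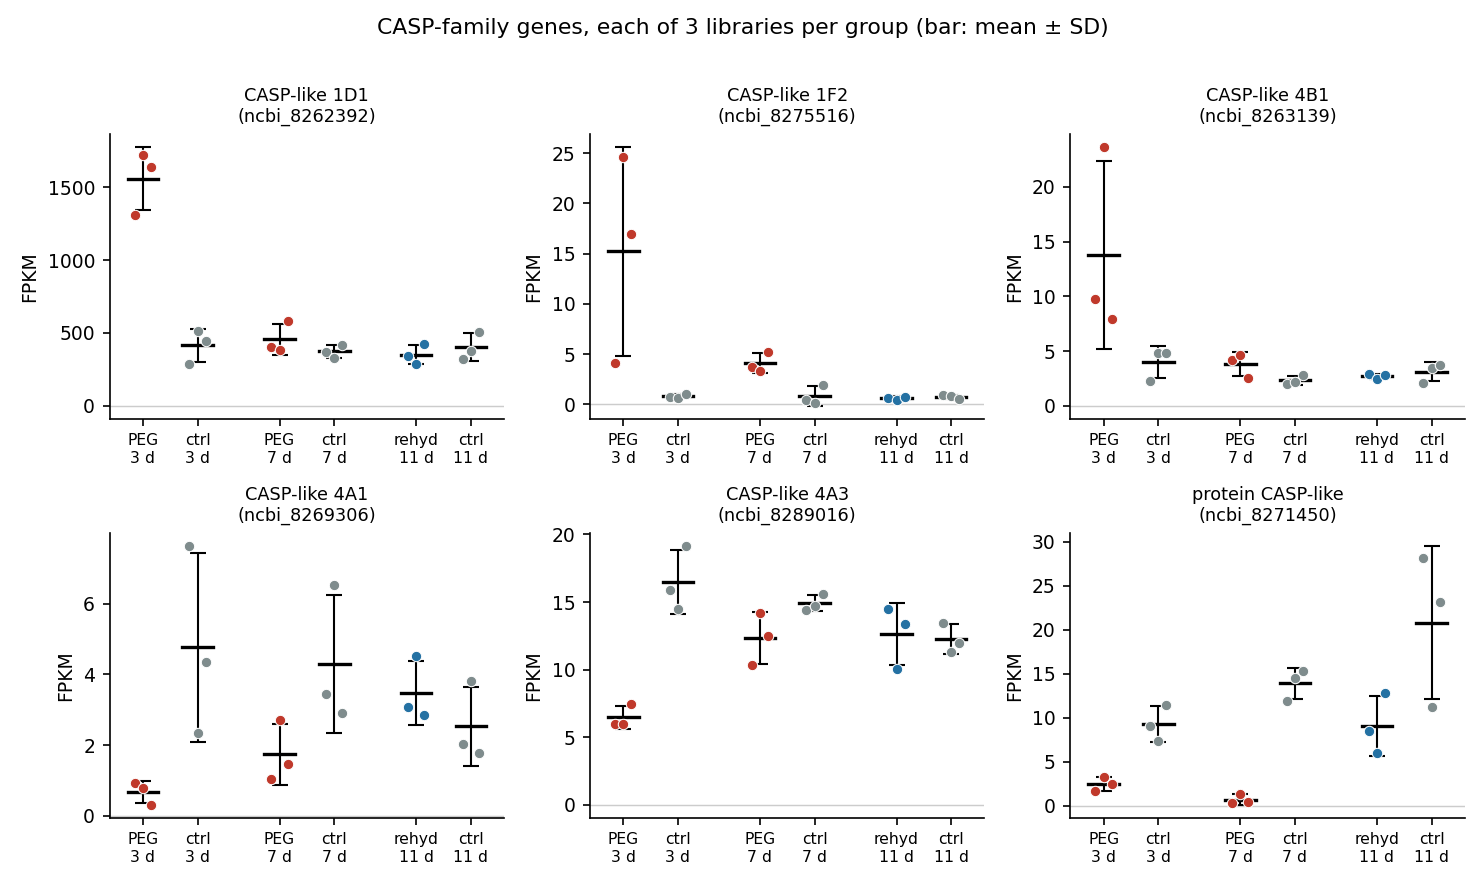
FPKM (y axis) of 6 CASP-family genes in each library (points), with group mean and SD (black), for PEG and untreated roots at 3 and 7 days and rehydrated and untreated roots at 11 days (x axis). CASP-like 1D1, 1F2 and 4B1 are high in PEG roots at 3 days, 4A1 and 4A3 are low there, and protein CASP-like is lowest in PEG roots at 7 days.

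The Casparian strip membrane proteins themselves, described here after their values were seen, were not called on any day. The 3 that could be tested had negative log2 values in all 3 comparisons with untreated roots. Protein 1-like (ncbi_8269726) had 8.32, 0.89 and 2.82 FPKM in PEG roots at 3 days, against 44.8, 2.63 and 11.9 FPKM in untreated roots (-1.84 ± 1.01, edgeR adjusted p 0.197). Its neighbour in the genome, protein 2 (ncbi_8269727), had 3.76, 0.18 and 1.82 FPKM in PEG roots and 16.2, 0.92 and 6.38 FPKM in untreated roots (-1.56 ± 1.05, edgeR adjusted p 0.293). Protein 3 (ncbi_8263304) had 15.4, 0.17 and 8.32 FPKM in PEG roots and 27.9, 4.85 and 12.6 FPKM in untreated roots (-0.48 ± 0.95, edgeR adjusted p 0.744). Groups overlapped for each of the 3, and libraries of 1 group differed by more than the group means did. Protein 4 (ncbi_8281830), annotated from castor itself, did not pass 0.71 FPKM in any library.

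In both groups at 3 days library 2 had the lowest value of each of the 3 genes and library 1 the highest. The summed level of a list of 26 xylem genes followed the same order, with 123, 3.73 and 35.0 FPKM in PEG libraries 1, 2 and 3 and 258, 49.5 and 95.4 FPKM in the untreated ones. So did the second most abundant lipid-transfer member (ncbi_8273009), with 870, 5.51 and 306 FPKM in PEG roots and 1469, 29.5 and 497 FPKM in untreated roots (-0.30 ± 1.25, edgeR adjusted p 0.884). The endodermis and root markers, a list that holds these genes, also kept this order, but phloem and photosynthesis genes did not. A list of 13 phloem genes had 42.8, 40.8 and 48.3 FPKM in PEG libraries 1, 2 and 3 and 83.6, 114 and 87.7 FPKM in the untreated ones. The 55 photosynthesis genes had 1045, 1956 and 1948 FPKM and 432, 1048 and 828 FPKM. That is the reverse order in both groups, though PEG libraries 2 and 3 were nearly equal. The libraries share whole root systems as their source, and the part of tissue make-up in these values was not tested. In bulk RNA, fewer cells of a type and less RNA per cell cannot be told apart.

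**Figure D3:**
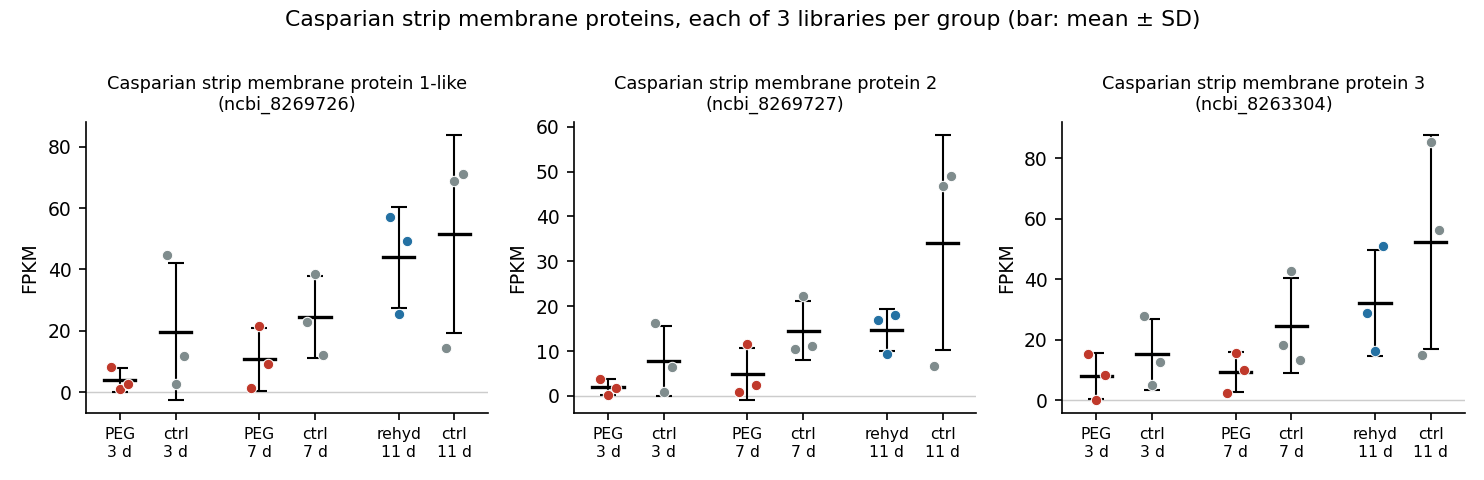
FPKM (y axis) of the 3 tested Casparian strip membrane proteins in each library (points), with group mean and SD (black), by treatment and day (x axis). The points of PEG or rehydrated roots overlap those of untreated roots for every gene and day, and spread widely within groups.

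Feruloyl transferases, which add ferulate to the omega-hydroxy acids of suberin in Arabidopsis, were the class with all tested members on 1 side. At 3 days all 6 log2 values were negative (-2.01 to -0.57), and 2 members were called lower, a share of 33.3% of 6 genes, beside 11.4% of all genes lower. Their summed level was 14.3 to 29.0 FPKM in PEG roots, against 60.9 to 67.9 FPKM in untreated roots, with no overlap. The transferase ncbi_8275769 had 3.00, 1.76 and 2.17 FPKM in PEG roots, against 11.7, 12.4 and 13.9 FPKM in untreated roots (-2.01 ± 0.28, edgeR adjusted p 0.00035). A second one (ncbi_8274204) had 5.04, 3.94 and 11.5 FPKM in PEG roots and 15.99, 21.5 and 19.7 FPKM in untreated roots (-1.05 ± 0.35, edgeR adjusted p 0.0422). Both lay apart from their untreated group. The most abundant one (ncbi_8286270) had 9.91, 5.77 and 13.3 FPKM in PEG roots and 23.3, 27.7 and 26.4 FPKM in untreated roots. Its groups also lay apart, but it was not called (-0.98 ± 0.39, edgeR adjusted p 0.0791). Of the calls, that of ncbi_8275769 was kept whichever library was left out, while that of ncbi_8274204 was lost without PEG library 1 or 2 or any 1 untreated library (-1.18 to -0.79). With library totals 4 of the 6 were called, all lower. Of all 16085 genes 31.5% were called with that scaling, 912 higher and 4157 lower.

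At 7 days no feruloyl transferase was called. The summed level was 31.2 to 52.2 FPKM in PEG roots and 49.6 to 72.0 FPKM in untreated roots. The gene ncbi_8275769 had 6.01, 7.98 and 10.1 FPKM in PEG roots, against 14.7, 15.1 and 10.2 FPKM in untreated roots, a gap of -0.50 ± 0.26 on the log2 scale. In rehydrated roots the class summed to 42.1 to 81.2 FPKM, within the 46.4 to 91.3 FPKM of untreated roots except for its lowest library.

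Ketoacyl-CoA synthases, which start each round of chain elongation, gave 1 call. Synthase 19-like (ncbi_8280193) had 0, 0 and 0.40 FPKM in PEG roots at 3 days, against 2.45, 2.85 and 1.98 FPKM in untreated roots (-3.53 ± 1.10, edgeR adjusted p 0.0309). The groups lay apart, and the call was lost without PEG library 1 or 2 or untreated library 1 or 2 (-3.54 to -3.02). Synthase 1-like (ncbi_8266305, singled out after its values were seen) had 1 count over the PEG libraries and 33 over the untreated ones. The untreated libraries had 26, 1 and 6 counts, so most came from library 1. The pooled counts give a ratio of 0.0365 with an exact interval of 0.000898 to 0.218. That interval covers counting error only, not the spread among libraries, and the gene was not called (edgeR adjusted p 0.0991). The abundant members were not called. Synthase 11 (ncbi_8276218) had 79.8, 81.4 and 67.0 FPKM in PEG roots at 3 days and 60.6, 71.2 and 45.9 FPKM in untreated roots (0.81 ± 0.36, edgeR adjusted p 0.11). Synthase 4 (ncbi_8288936) had 12.3, 15.3 and 19.5 FPKM in PEG roots and 27.4, 25.4 and 23.9 FPKM in untreated roots. Those FPKM lie apart, but on the TMM scale of the test the log2 value was -0.26 ± 0.21 (edgeR adjusted p 0.386).

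In rehydrated roots synthase 11 had 75.7, 152 and 168 FPKM, against 58.8, 62.3 and 103 FPKM in untreated roots, where its spread was wide and the groups overlapped (0.72 ± 0.36, edgeR adjusted p 0.53).

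Acyl-CoA reductases, which make the primary alcohols of suberin and waxes, were scarce. Reductase 3-like ncbi_8263347 had 0.07, 0 and 0.17 FPKM in PEG roots at 3 days, against 4.09, 0.84 and 1.29 FPKM in untreated roots (-4.01 ± 1.32, edgeR adjusted p 0.0384). The call was lost without any 1 PEG library or untreated library 1 (-5.11 to -3.11). A second 3-like copy close by in the genome (ncbi_8277590, with 1 gene between) had 1.46, 0.41 and 1.36 FPKM in PEG roots and 0.26, 0.72 and 0.20 FPKM in untreated roots. These groups overlap and the gene was not called (1.93 ± 0.91, edgeR adjusted p 0.134). The other 3 reductases were not tested.

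The acyltransferase class holds 3 glycerol-3-phosphate acyltransferases, the enzymes that start glycerolipids and, for some members in Arabidopsis, suberin and cutin. The other 8 are lysophosphatidic acid acyltransferases, which act in the next step of membrane and storage lipid synthesis. A member of the lysophosphatidic kind (ncbi_8260938) rose at 3 days, with 22.7, 44.5 and 32.3 FPKM in PEG roots, against 10.2, 15.2 and 16.2 FPKM in untreated roots. The groups lay apart (1.63 ± 0.32, edgeR adjusted p 0.00291), and the call was kept whichever library was left out. After 7 days it had 16.4, 16.1 and 19.4 FPKM in PEG roots and 15.2, 10.79 and 18.9 FPKM in untreated roots, which overlap.

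Probable glycerol-3-phosphate acyltransferase 3 (ncbi_8267306) rose from very few counts. It had 30 counts over the PEG libraries at 3 days and 1 over the untreated ones, a ratio of 36.2 with an exact 95% interval of 6.01 to 1470 for counting error (edgeR adjusted p 0.0198). The call was lost without PEG library 1 or untreated library 2 or 3. At 7 days it had 25 counts in PEG roots and 2 in untreated roots (ratio 15.1, interval 3.75 to 131), and was not called (edgeR adjusted p 0.101). Rehydrated roots had 0.83, 2.36 and 2.02 FPKM, above the 0.16, 0.40 and 0.74 FPKM of untreated roots, also without a call (1.85 ± 0.90, edgeR adjusted p 0.529). The abundant glycerol-3-phosphate acyltransferase 3 (ncbi_8282960) had 23.3, 28.9 and 32.9 FPKM in PEG roots at 3 days and 44.8, 41.6 and 48.9 FPKM in untreated roots. FPKM lay apart, but the log2 value on the TMM scale was -0.23 ± 0.17 (edgeR adjusted p 0.345). The top lysophosphatidic acid acyltransferase (ncbi_8278956) had 43.4, 115 and 80.4 FPKM in PEG roots and 78.3, 80.7 and 113 FPKM in untreated roots, with no call.

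**Figure D4:**
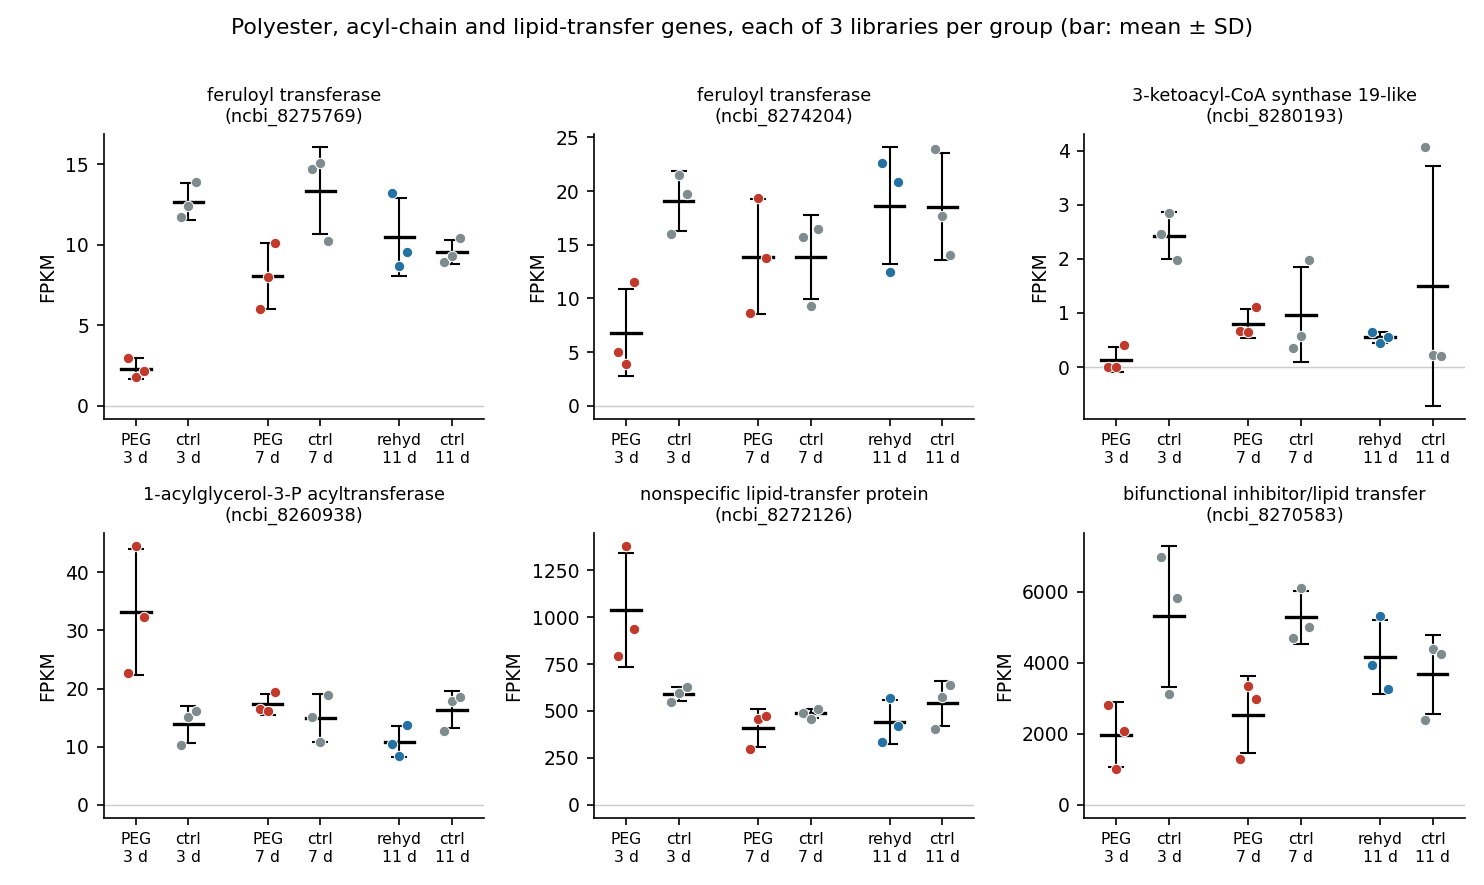
FPKM (y axis) of 6 genes of suberin, acyl-lipid and lipid-transfer classes in each library (points), with group mean and SD (black), by treatment and day (x axis). At 3 days the transferases and synthase 19-like are lower in PEG roots, and the acyltransferase and the nonspecific lipid-transfer protein are higher; the bifunctional inhibitor gene lies lower in PEG roots on both days without being called.

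Lipid-transfer proteins gave 4 increases and 0 decreases at 3 days among 14 tested. That is 28.6%, beside 23.1% of all genes called and 11.7% higher. Still, 8 of the 14 had a negative log2 value. The most abundant of the 4 was a nonspecific lipid-transfer protein (ncbi_8272126) with 795, 1377 and 935 FPKM in PEG roots, against 550, 594 and 625 FPKM in untreated roots (1.26 ± 0.30, edgeR adjusted p 0.00822). These groups lay apart at 3 days. After 7 days it stood at 295, 459 and 474 FPKM in PEG roots and at 491, 460 and 511 FPKM in untreated roots. These groups overlapped, it was not called, and its log2 value was near 0 (-0.02 ± 0.30). A bifunctional inhibitor/lipid-transfer gene (ncbi_8283236) had 121, 29.0 and 84.8 FPKM in PEG roots at 3 days and 27.96, 38.4 and 29.2 FPKM in untreated roots (1.73 ± 0.41, edgeR adjusted p 0.00815). PEG library 2 lay within the untreated range.

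An At2g13820-like lipid-transfer locus (XLOC_014486) was called on both days. At 3 days it had 13.5, 0.77 and 2.43 FPKM in PEG roots, against 0.41, 0.20 and 0.57 FPKM in untreated roots (4.20 ± 1.11, edgeR adjusted p 0.0142). At 7 days it had 2.18, 17.4 and 5.21 FPKM in PEG roots, against 0.48, 0.67 and 0.18 FPKM in untreated roots (4.37 ± 1.09, edgeR adjusted p 0.0377). The groups lay apart on both days, with 1 library far above the other PEG libraries each time. The call at 3 days was lost without PEG library 1 (2.41) or untreated library 1 (4.20), and the call at 7 days without any 1 of its 6 libraries (3.27 to 4.81). A second At2g13820-like gene (ncbi_8275438), in a run of 4 neighbouring lipid-transfer genes, had 32.03, 2.05 and 4.06 FPKM in PEG roots at 3 days and 5.53, 3.48 and 2.88 FPKM in untreated roots. Its call (2.13 ± 0.73, edgeR adjusted p 0.0453) rests on PEG library 1, without which the log2 value was 0.07, and it was also lost without any 1 untreated library (1.98 to 2.41).

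The most abundant barrier gene, the bifunctional inhibitor/lipid-transfer gene ncbi_8270583, went the other way in value. It had 2816, 1004 and 2086 FPKM in PEG roots at 3 days, against 6966, 3119 and 5811 FPKM in untreated roots. At 7 days the gene had 1294, 3328 and 2965 FPKM in PEG roots, against 4696, 6102 and 5015 FPKM in untreated roots. In FPKM the groups lay apart on both days, but neither difference was called (-0.99 ± 0.43, edgeR adjusted p 0.109, and -0.86 ± 0.43, edgeR adjusted p 0.239). On the TMM scale of the test the groups overlap at 3 days. There PEG library 1 (factor 0.78) lies above untreated library 2 (factor 1.057). Rehydrated roots had 3919, 5302 and 3246 FPKM, overlapping the 2400 to 4394 FPKM of untreated roots. This gene set the total of its class, which summed to 2643 to 5311 FPKM in PEG roots at 3 days and 4014 to 9814 FPKM in untreated roots.

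Gene length moved with the comparison at 3 days. The shortest 10% of all genes (median 684 bases) had a median log2 value of 0.58, and the longest 10% (3839 bases) one of -0.51. Tested lipid-transfer genes had a median length of 738 bases and ketoacyl-CoA synthases one of 2203 bases. With the length trend removed, ncbi_8272126 (0.80), ncbi_8283236 (0.90), ncbi_8275438 (1.72) and CASP-like ARALYDRAFT_485429 (1.20) were no longer called, and the 59 members had 8 higher and 11 lower, beside 19.8% of all genes.

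After 7 days in PEG, 2 members were higher and 1 lower, 5.08% of the 59 tested beside 4.05% of all genes (2.59% higher and 1.46% lower). They are CASP-like 1F2, the lipid-transfer locus XLOC_014486 and protein CASP-like, each also called at 3 days in the same direction. No synthase, reductase, acyltransferase or feruloyl transferase was called on that day by edgeR. Without any 1 of PEG libraries 1 and 3 and untreated libraries 1 and 2, the count at 7 days was 1 member, lower each time, beside 0.287% to 0.764% of all genes. Of the 19 members called on any day, 8 were higher at 3 days only, 8 lower at 3 days only, 2 higher on both days and 1 lower on both.

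The difference between the PEG effects at 7 and at 3 days was called by edgeR for 0 of 59 members, beside 0.236% of all genes, with 14 members at an unadjusted p below 0.05. DESeq2 called 5 members in that test, beside 1.52% of all genes. Its log2 differences were -1.83 ± 0.41 for CASP-like 1D1, -3.15 ± 0.85 for CASP-like 1E1, -2.66 ± 0.69 for protein CASP-like, 1.49 ± 0.41 for the feruloyl transferase ncbi_8275769 and -2.36 ± 0.61 for the lipid-transfer gene ncbi_8283236. A call at 3 days without one at 7 days is thus not shown by edgeR to be a difference between days.

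After rehydration, on day 11, edgeR called 0 of the 59 members between rehydrated and untreated roots, beside 0.0124% of all genes. At an unadjusted p below 0.05 there were 6, and DESeq2 called 0. The median log2 value of the members was -0.25, with 15 positive and 44 negative, against 0.01 for all genes. In the CASP family 18 of 22 values were negative. Gene length moved with this comparison too. The shortest 10% of all genes had a median log2 value of -0.43 and the longest 10% one of 0.19. Tested members of the CASP family had a median length of 883 bases and lipid-transfer genes one of 738 bases. Classes of longer genes had negative values as well. They were 5 of 6 ketoacyl-CoA synthases (median 2203 bases), 2 of 2 reductases (1648 bases) and 6 of 9 acyltransferases (1649 bases). Feruloyl transferases (1581 bases) had 3 negative and 3 positive. The part of gene length in these values was not tested. CASP-like 4D1 (ncbi_8267759), the second most abundant of the CASP family, had 78.4, 56.5 and 85.9 FPKM in rehydrated roots, against 120, 146 and 147 FPKM in untreated roots. Those groups lay apart without a call (-1.0 ± 0.44, edgeR adjusted p 0.485). The difference between the rehydration effect and the PEG effect at 7 days was called by edgeR for 0 members, beside 0.671% of all genes, with 5 at an unadjusted p below 0.05. DESeq2 called 1, protein CASP-like (2.82 ± 0.67), beside 5.79% of all genes.

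No member was called between untreated roots of different days. Between 7 and 3 days edgeR called 0 members (0.0% of all genes), 0 had an unadjusted p below 0.05 and DESeq2 called 0. Between 11 and 3 days edgeR called 0 (0.0311% of all genes), 9 had an unadjusted p below 0.05 and DESeq2 called 0. The 3 tested Casparian strip membrane proteins had log2 values of 1.43 to 2.18 there, none called, and their class of 4 summed to 36.2, 177 and 201 FPKM in untreated roots at 11 days and 8.40 to 89.1 FPKM at 3 days.

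Of 179 other genes listed for the same pathways, 82 were tested, and 3 were higher and 14 lower at 3 days. These calls are 20.7% of the 82, beside 23.1% of all genes (11.7% higher and 11.4% lower), so their mix of directions differed from that of all genes. Of the 82 log2 values 26 were positive and 56 negative, with a median of -0.50, against -0.08 for all genes. A list called endodermis regulators had 0 higher and 5 lower of 11 (45.5%, beside 11.4% of all genes lower), named here after their values were seen. That list of 31 genes holds 27 kinases with the receptors GSO1 or GSO2 as best hits and 4 SCARECROW or SHORT-ROOT genes. Of the kinases 7 were tested and 3 were lower, and of the 4 others 2 were lower. SHORT-ROOT (ncbi_8283369) and SCARECROW (ncbi_8283041), the transcription factors that specify endodermis in Arabidopsis, fell by 1.35 and by 1.01 on the log2 scale (edgeR adjusted p 0.00206 and 0.0202). SCARECROW 1-like (ncbi_8266306) had a positive value and a SCARECROW-like gene (ncbi_8279702) a negative one, neither called (0.68 ± 0.55, edgeR adjusted p 0.384, and -2.42 ± 0.86, edgeR adjusted p 0.0533). The other 3 that fell were kinases with best hits to GSO1 (ncbi_8260735, -2.79 ± 0.71, and ncbi_8288976, -2.21 ± 0.36) and GSO2 (ncbi_8282168, -1.79 ± 0.45). In Arabidopsis GSO1 senses whether the strip is closed. Best hits alone do not show that the castor kinases do the same. Partners of the ketoacyl-CoA synthases in chain elongation had 0 higher and 3 lower of 6. A 3-oxoacyl-CoA reductase (ncbi_8285444) was lower at 3 days (-1.79 ± 0.36) and at 7 days (-1.78 ± 0.35). Long-chain acyl-CoA synthetases, which activate fatty acids, had 0 higher and 2 lower of 5 (40.0%, beside 11.4% of all genes lower). Synthetase 2 (ncbi_8275530) stood at -4.36 ± 1.31.

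GDSL lipases, some of which join suberin and cutin monomers, had 2 higher and 3 lower of 39 at 3 days. That is 12.8%, below the 23.1% of all genes. The largest values were 2.01 ± 0.45 (ncbi_8280849), 1.86 ± 0.52 (ncbi_8267507) and -4.43 ± 1.32 (ncbi_8269297). A dirigent protein 22-like gene (ncbi_8264683), of a family that guides lignan and lignin coupling, rose at 3 days (2.41 ± 0.63) and at 7 days (2.91 ± 0.66). It was the only call among 10 tested dirigent genes on either day, and most of the family went the other way in value. At 3 days 8 of the log2 values were negative and 2 positive, with a median of -0.73, against -0.08 for all genes. At 7 days 6 were negative and 4 positive, with a median of -0.38. ABCG exporters had 0 higher and 1 lower of 4 at 3 days (25.0%, beside 11.4% of all genes lower). CYP86 hydroxylases, of 2 tested, and genes of wax synthesis, of 5 tested, had no call by edgeR. At 7 days the wider list had 1 higher and 1 lower (2.44%, beside 4.05% of all genes), and at 11 days it had 0 (beside 0.0124%).

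A list of 14 endodermis and root markers had 0 higher and 3 lower of 12 tested at 3 days. That is 25.0%, beside 11.4% of all genes lower and 23.1% called in either direction. The list is not independent of the genes above, since it holds 4 barrier members and the SHORT-ROOT and SCARECROW calls. Without the 4 members it had 0 higher and 3 lower of 9 (33.3%). The full list summed to 61.8 to 89.0 FPKM in PEG roots and 142 to 218 FPKM in untreated roots. The 55 photosynthesis genes used as shoot markers gave 10 increases and no decrease among 41 tested after 3 days, and 27 increases and no decrease after 7. Those shares are 24.4% at 3 days, beside 11.7% of all genes higher, and 65.9% at 7 days, beside 2.59%. They summed to 1045 to 1956 FPKM in PEG roots and 432 to 1048 FPKM in untreated roots at 3 days. At 7 days the sums were 2490 to 3131 FPKM in PEG roots and 363 to 747 FPKM in untreated roots, and at 11 days 537 to 911 FPKM in rehydrated roots and 385 to 982 FPKM in untreated roots. Between 9 and 13 of these 55 genes were at 0 in every library of a group, and 1 of the 14 root markers was at 0 in all groups. Of 19 tested xylem genes, out of 26, 2 fell and 0 rose at 3 days; of 12 tested phloem genes, out of 13, 5 fell and 0 rose, beside 11.4% of all genes lower. The part of these tissues in the values of the barrier genes was not tested.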

How the data were processed

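The authors deposited 1 table with 2 columns per library, which the file headers name as counts and FPKM. Per the file headers the values of the first kind are counts, but they hold some fractions and so are expected counts. At least 98.3% of the values of each library were whole, and they were rounded for all tests. Levels are the authors' FPKM values, except in untreated roots of day 11. FPKM uses library totals, while fold changes use TMM. For that group 3 FPKM columns were not used, because titles and descriptions point to different columns, and FPKM was computed here from its counts, the totals of its libraries and a length per gene worked out from the other columns. The same computation gave 0.9958 to 1.0036 times the deposited FPKM in the other libraries (5th to 95th percentile of genes). The sources used here give no aligner and no genome build. Library totals were 6607760 to 10817476 counts. A reference table of names and gene order held 102 of the 109 members, and no sequence was used.

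Genes were filtered with filterByExpr (minimum count 10, minimum total 15). All 18 libraries were scaled by TMM, with factors of 0.765 to 0.806 in the PEG libraries of day 3, against 1.04 to 1.10 in their untreated libraries. The test was edgeR's robust quasi-likelihood test with a mean for each group (edgeR 4.0.16, R 4.3.3), with Benjamini and Hochberg adjustment within each of 7 comparisons. SEs are approximate: the size of the log2 value divided by the root of F. Exact intervals of count ratios have 95% confidence. The members and lists were chosen with earlier results of these data known. Named were, per class and same-day comparison, up to 4 called members with the largest increase and 4 with the largest decrease at 1 FPKM or more, all called members of classes with 5 or fewer, and the 2 most abundant per class. Of the wider list the 3 largest calls per direction were named. Same-numbered libraries deviated together in part, as libraries 1 and 2 did at 3 days, but not on all days. The numbers were therefore not treated as pairs in the main fit. The scripts were checked on simulated data. Alternatives were DESeq2 1.42.0, limma 3.58.1 on log2(FPKM + 1) and log2(FPKM + 0.1), other scalings and filters, a replicate block, and each library left out in turn.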

Additional observations from a re-analysis of the deposited data

How the results depend on the processing

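The 19 members called at 3 days became 9 with a fit restricted to the 6 libraries compared (beside 8.67% of all genes) and 9 at an adjusted p below 0.01 (8.91% of all genes), and 10 to 16 with 1 library left out (10 without untreated library 1; 11.6% to 24.3% of all genes). The 3 at 7 days became 1 with only the libraries compared, with limma without a filter and at an adjusted p below 0.01 (1.12%, 3.54% and 0.435% of all genes), and 1 to 2 with 1 library left out (0.287% to 5.05% of all genes). For the difference of PEG effects, 7 minus 3 days, DESeq2 called 5 members, beside 1.52% of all genes. Leaving out libraries gave 0 to 1 there, beside 0.0857% to 0.281% of all genes. For the rehydration effect minus the PEG effect at 7 days DESeq2 called 1, and only the libraries compared gave 1 (beside 5.79% and 2.76% of all genes). Leaving out libraries gave 0 to 2, beside 0.0183% to 2.65% of all genes. No library left out gave a call at 11 days or between untreated groups. By class at 3 days, called ketoacyl-CoA synthases went from 1 to 2 without a filter (beside 18.2% of all genes). They went to 3 with DESeq2, with library totals and with the length trend removed (28.3%, 31.5% and 19.8% of all genes). Feruloyl transferases went to 4 with library totals, and acyltransferases to 1 without lysophosphatidic acid acyltransferases. At 7 days the CASP family had 1 call without a filter, with the length trend removed and with library totals (2.88%, 4.1% and 3.97% of all genes). Class medians at 3 days with library totals were -0.73 (CASP family), -1.79 (ketoacyl-CoA synthases), -0.67 (acyltransferases) and -1.50 (feruloyl transferases), and at 7 days -0.21 (ketoacyl-CoA synthases) and -0.16 (acyltransferases), where both had been above 0. The reductase median was -2.52 without a filter. With the length trend removed, medians at 11 days were -0.39 (ketoacyl-CoA synthases) and -0.007 (lipid-transfer proteins). The causes were not tested.

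With the replicate number as a block, 17 members were called at 3 days and 2 at 7 days, beside 21.1% and 3.36% of all genes. Same-numbered libraries had correlations of deviations of 0.625, 0.501 and 0.08 at 3 days, 0.047, 0.503 and -0.227 at 7 days, and 0.164, -0.154 and -0.156 at 11 days. Libraries with different numbers had -0.55 to 0.12 at 3 days, -0.52 to 0.479 at 7 days and -0.234 to 0.307 at 11 days. Numbers thus went together for libraries 1 and 2 at 3 days but not throughout, and were not taken as pairs. Of 21 named calls, 9 were kept without any 1 library, 12 were lost without at least 1, and 0 reversed under any alternative. With 3 libraries per group and few counts, changes of the scarce synthases, reductases and acyltransferases were hard to detect, and a missing call there does not show equal levels.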
